A study of Mus musculus with 6 samples.

Results

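The cells described here carried either of 2 lentiviral lineage barcodes, bc1495-bc3033662 or bc1439-bc3041529, that remained in PB3 cells after repeated eribulin. Names are written as the deposited table has them for untreated nuclei, with bc14 and bc30 each followed directly by the number of that part; for other conditions the table sets a hyphen before each number. PB3 is a mouse mammary tumour cell line, so every condition came from 1 line. Members were all cells whose latest deposited barcode call named either barcode, with hyphens in the name ignored. They numbered 1610 of the 51785 cells and nuclei in the table, 1087 with bc1495-bc3033662 and 523 with bc1439-bc3041529. Both were chosen by measured values of these same cells, namely their share after 4 rounds of eribulin and the cluster in which they lay there. Those values are given as description and support nothing.

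All cells came from barcoded PB3 cultures. ERI1, ERI2, ERI3 and ERI4 had 1, 2, 3 and 4 rounds of eribulin at 500 nM for 72 h, each followed by 48 h of recovery. PAC1, PAC2 and PAC3 had 1, 2 and 3 rounds of paclitaxel, the first at 100 nM for 72 h and the later ones at 250 nM. PAC2 and PAC3 recovered for 48 h after the first round; recovery after the final round is not named in the labels for PAC2, and its length is not stated for PAC1 or PAC3. UNT had no drug. UNT cells and ERI4 cells were captured in run 1. ERI1, ERI2 and ERI3 shared 1 library of run 2 and were told apart by hashtag oligos, as were PAC1, PAC2 and PAC3 in another. UNT nuclei and ERI4 nuclei came from run 3, the RNA part of a joint RNA and chromatin assay. With 1 library behind each condition, values are set beside each other without a test or p-value. Shares stand with exact Clopper-Pearson 95% intervals and medians with 95% intervals from the binomial order statistics. Neither interval holds the variation between cultures; they reflect counting error only.

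Eribulin blocks the growth of microtubules and paclitaxel stabilises them, and both can arrest cells in mitosis. A lentiviral barcode integrates into the genome, is transcribed and is inherited by daughter cells, so cells with the same barcode are read as descendants of one infected cell. Pseudotime orders cells along a path of transcriptome change, here rooted in untreated cells. S and G2M scores are relative measures, which can be negative, of the expression of genes known to peak in those phases of the cell cycle. The share of mRNA molecules from the mitochondrial genome is commonly read as a mark of cell quality and of metabolic state.

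The barcode sequences below are shown because they define the lineages, with bc146-bc3093034 added as the other main lineage of the cluster in which bc1495-bc3033662 lay after 4 rounds. They come from the authors' deposited barcode lists, read 5′ to 3′. Capitals mark the bc14 part and the bc30 part, and the lower-case bases between them are the spacer that every listed barcode shares.
bc1495-bc3033662: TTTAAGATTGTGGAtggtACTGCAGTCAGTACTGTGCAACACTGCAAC
bc1439-bc3041529: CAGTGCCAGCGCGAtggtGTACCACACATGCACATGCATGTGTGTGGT
bc146-bc3093034: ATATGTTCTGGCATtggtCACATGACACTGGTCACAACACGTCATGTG

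The sequences are synthetic and have no place in the mouse genome of their own. Each was 48 bases long, with 14 bases of bc14, 4 of spacer and 30 of bc30. The deposited list paired 100 bc14 parts with 100000 bc30 parts into 10000000 barcodes, and every bc30 part was built only from the steps AC, CA, GT and TG. The bc14 part of bc1495-bc3033662 had 28.6% G and C and that of bc1439-bc3041529 had 71.4%, while both bc30 parts had 50%. The member barcodes differed from each other at 12 positions of bc14 and 20 of bc30. The nearest other bc14 part on the list differed from each at 6 positions and the nearest other bc30 part at 8. Against the 185 lentiviral barcodes on the shorter list used for run 2, the nearest differed at 22 positions from bc1495-bc3033662 and at 23 from bc1439-bc3041529.

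A barcoded cell is a cell for which the latest call named exactly 1 barcode, although several may have been detected in it. Barcoded cells numbered 5087 in UNT cells, 1356 in ERI1, 882 in ERI2, 2215 in ERI3, 6725 in ERI4 cells, 1792 in PAC1, 569 in PAC2, 2286 in PAC3, 1495 in ERI4 nuclei and 4935 in UNT nuclei. The median depth ranged between 11266.5 and 20877 UMIs, or counted RNA molecules, per cell, and per nucleus it was 2089 in the ERI4 and 3427.5 in the UNT library. Barcode counting differed between runs. The lowest barcode count above 0 was 8 per cell in ERI4 and 10 in UNT of run 1, but 1 in both libraries of run 2. All called barcodes of ERI1, ERI2 and ERI3 were on the run 2 list, against 99.4% of those of ERI4 cells and 63.4% of those of UNT cells. For PAC1, PAC2 and PAC3 it was 70.4%, 59.2% and 63.7%, so the libraries of run 2 differed in this as well. Shares of different runs are therefore given as levels and not as changes. Of 51540 distinct cell barcodes, 245 occurred in more than 1 library; 17 member cells had such a cell barcode, and in 0 cases did both cells carry the same member lineage.

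bc1495-bc3033662 was rare in UNT cells and among the most frequent barcodes after 3 and 4 rounds of eribulin. It was called in 8 of the barcoded UNT cells, 0.157% (0.0679 to 0.310), where it ranked as number 115 of 506 barcodes. In run 2 it made up 1.40% (0.846 to 2.18) of ERI1 with 19 cells, 1.93% (1.13 to 3.07) of ERI2 with 17 cells and 5.42% (4.51 to 6.44) of ERI3 with 120 cells. The ERI3 interval lay above those of ERI1 and ERI2, which overlapped. In run 1 it made up 10.7% (9.96 to 11.5) of ERI4 cells with 719 cells, and was the second most frequent of 16 barcodes there. Its rank among barcodes was 17 in ERI1, 12 in ERI2, 4 in ERI3 and 2 in ERI4 cells. Within run 1, its share in ERI4 cells exceeded that in UNT cells by 10.5 percentage points.

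Within run 2, the share of bc1439-bc3041529 was not higher in ERI3 than in ERI1 or ERI2. In run 1, bc1439-bc3041529 was called in 16 barcoded UNT cells, 0.315% (0.180 to 0.510), and ranked as number 78. It made up 6.34% (5.10 to 7.77) of ERI1 with 86 cells, 6.46% (4.93 to 8.29) of ERI2 with 57 cells and 4.70% (3.85 to 5.66) of ERI3 with 104 cells. These intervals overlapped, and its rank was 3, 5 and 5. In ERI4 cells of run 1 it made up 1.68% (1.39 to 2.02) with 113 cells and ranked as number 5. This share was 1.37 percentage points more than in UNT cells. The ERI3 and ERI4 shares are of different runs, so their order is not read as a change. With at least 8 barcode counts in both, the shares were 0.209% of ERI3 and 1.68% of ERI4 cells. Within run 2, the share of bc1495-bc3033662 was 4.02 percentage points higher in ERI3 than in ERI1, while that of bc1439-bc3041529 was 1.65 percentage points lower.

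Under paclitaxel neither barcode became frequent. bc1495-bc3033662 was called in 9 PAC1 cells, 0.502% (0.230 to 0.951), in 0 of 569 barcoded PAC2 cells, where 3 cells would have made 0.527%, and in 1 PAC3 cell, 0.0437% (0.00111 to 0.243). bc1439-bc3041529 was called in 22 PAC1 cells, 1.23% (0.771 to 1.85), in 2 PAC2 cells, 0.351% (0.0426 to 1.26), and in 0 of 2286 barcoded PAC3 cells, where 3 cells would have made 0.131%. After 3 rounds, bc1495-bc3033662 made up 5.42% of ERI3 against 0.0437% of PAC3, and bc1439-bc3041529 made up 4.70% of ERI3 against 0 cells of PAC3. After 1 round, the shares were 1.40% of ERI1 against 0.502% of PAC1 for bc1495-bc3033662, with overlapping intervals, and 6.34% of ERI1 against 1.23% of PAC1 for bc1439-bc3041529, with intervals apart. Eribulin and paclitaxel cells came from different libraries, so drug and library cannot be told apart. The libraries also differed in how many called barcodes were on the run 2 list. Among barcodes on that list alone, bc1495-bc3033662 made up 0.714% and bc1439-bc3041529 1.74% of PAC1, while the ERI1 shares stayed at 1.40% and 6.34%.

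In nuclei, bc1495-bc3033662 made up 12.6% (10.9 to 14.4) of the barcoded ERI4 nuclei with 188 nuclei, against 0.122% (0.0446 to 0.264) of UNT nuclei with 6. bc1439-bc3041529 made up 5.28% (4.21 to 6.54) of ERI4 nuclei with 79, against 0.892% (0.649 to 1.20) of UNT nuclei with 44. Both were thus more frequent among barcoded nuclei after eribulin, within run 3. The lineage make-up of ERI4 nuclei differed from that of ERI4 cells, however. The barcode bc1455-bc3023349 made up 68.4% of barcoded ERI4 cells and 10.1% of barcoded ERI4 nuclei, and bc1476-bc3049517 made up 6.42% and 30.2%. Only 17.2% of ERI4 nuclei were barcoded, against 49.8% of UNT nuclei. The size in ERI4 nuclei depended on which deposited call was read. The table holds 3 successive calls. Under the first the shares of ERI4 nuclei were 10.0% (45 of 449) for bc1495-bc3033662 and 3.56% (16 of 449) for bc1439-bc3041529, and under the first revision they were 3.56% and 1.55% of 4245. Of the 188 nuclei that the latest call gave to bc1495-bc3033662, the first revision had given 26 the same barcode, 70 the barcode bc1455-bc3023349 and 69 none. Of the 79 nuclei of bc1439-bc3041529, it had given 6 the same barcode, 29 the barcode bc1455-bc3023349 and 32 none. The ERI4 nuclei hence do not give a second count of these lineages that is free of the call.

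The number of barcode molecules per cell differed between the lineages. Among members with exactly 1 detected barcode, the median barcode count of bc1495-bc3033662 was 15.5 (4 to 24) in ERI1, 36 (18 to 48) in ERI2 and 10 (9 to 13) in ERI3. That of bc1439-bc3041529 was 4 (3 to 5) in ERI1, 3 (2 to 3) in ERI2 and 1 (1 to 2) in ERI3. At least 8 barcode counts, the lowest value in ERI4 cells, were reached by 70.6% of these ERI3 cells of bc1495-bc3033662 and by 0 of the 91 of bc1439-bc3041529. With that minimum set on all cells of ERI3, bc1495-bc3033662 made up 9.21% (7.45 to 11.2) and bc1439-bc3041529 0.209% (0.0253 to 0.754) of the 956 barcoded cells left. In ERI1 and ERI2 the same minimum left 1.70% and 2.96% for bc1495-bc3033662, within the intervals without it, and 2.23% and 1.29% for bc1439-bc3041529, against 6.34% and 6.46% without it. The minimum thus turned the near-equal ERI3 shares of 5.42% and 4.70% apart. In ERI4 cells the single-barcode members had a median count of 21 (19 to 23, 155 cells) for bc1495-bc3033662 and 9 (9 to 11, 7 cells) for bc1439-bc3041529, which lies 1 above the lowest count of that library. Whether this minimum bears on the share of bc1439-bc3041529 in ERI4 cells was not tested.

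Several barcodes were often detected in 1 member cell of run 1. Exactly 1 barcode was detected in 155 of the 719 ERI4 cells of bc1495-bc3033662 (21.6%) and in 2 of its 8 UNT cells. For bc1439-bc3041529 it was 7 of 113 ERI4 cells (6.19%) and 0 of 16 UNT cells. Of all ERI4 cells, 39.7% had 2 or more barcodes, as had 59.5% of all UNT cells. Among ERI4 cells of other lineages, exactly 1 was detected in 60.4% of bc1455-bc3023349, 29.1% of bc146-bc3093034 and 10.2% of bc1476-bc3049517. All 16 of those UNT cells had at least 3 detected barcodes, with a median of 5.5, and the first deposited call had named 14 of them Doublet. That call had also named 268 of the 719 ERI4 cells of bc1495-bc3033662 and 106 of the 113 of bc1439-bc3041529 Doublet. The share of bc1439-bc3041529 in run 1 therefore rests on cells with several barcodes: the first call gave it 2 of 2058 barcoded UNT cells, 0.0972%, in place of 16 of 5087. In ERI4 cells the first call gave it 7 of 5463, 0.128%, in place of 113 of 6725. Its ERI4 share thus exceeded its UNT share by 0.0310 percentage points under the first call, with an interval of -0.299 to 0.252, against 1.37 under the latest. For bc1495-bc3033662 the same difference was 8.06 under the first call, against 10.5. In run 2, by contrast, 90.8% of the ERI3 members of bc1495-bc3033662 and 87.5% of those of bc1439-bc3041529 had exactly 1 detected barcode. Whether the extra barcodes in run 1 came with doublets was not tested.

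Clusters were the authors', made on all libraries together, and are given by number. Cells of bc1495-bc3033662 lay in cluster 1 in UNT, with 7 of 8 cells, and in cluster 7 in ERI1, with 18 of 19. In ERI2, 12 of 17 lay in cluster 7 and 3 in cluster 8, and those 3 were 75% of the 4 ERI2 cells that cluster 8 held in all. In ERI3, 101 of 120 lay in cluster 8, 84.2% (76.4 to 90.2), against 24.6% of the other barcoded ERI3 cells, and 13 lay in cluster 6 and 5 in cluster 2. In ERI4 cells, 651 of 719 lay in cluster 8, 90.5% (88.2 to 92.6), against 11.8% of the others, with 28 in cluster 3 and 10 in cluster 1. In PAC1, 4 of 9 lay in cluster 8 and 4 in cluster 1, against 9.76% and 8.64% of the other barcoded PAC1 cells. Run and rounds cannot be told apart where ERI1 is set beside UNT or ERI4 beside ERI3, while ERI2 and ERI3, which differ in cluster, came from 1 library.

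Cluster 8 was shared with bc146-bc3093034. In ERI3 it held 616 barcoded cells, of which 101 carried bc1495-bc3033662, 16.4% (13.6 to 19.6), and 497 carried bc146-bc3093034. In ERI4 cells it held 1358, of which 651 carried bc1495-bc3033662, 47.9% (45.3 to 50.6), and 601 carried bc146-bc3093034. Few cells of cluster 8 lacked a barcode: 8.32% of its 1503 ERI4 cells had no barcode feature, and 1.26% of its 636 ERI3 cells. No cell of bc1439-bc3041529 was called in cluster 8 in ERI3 or ERI4 cells.

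Cells of bc1439-bc3041529 lay in cluster 5 in UNT, with 12 of 16 cells, 75% (47.6 to 92.7), against 26.1% of the other barcoded UNT cells. All 16 had at least 3 detected barcodes and the first call had named 14 of them Doublet, so the untreated state of this lineage is uncertain. In ERI1, 81 of 86 lay in cluster 7 and 4 in cluster 12, and in ERI2, 54 of 57 lay in cluster 7 and 2 in cluster 12. Cluster 12 held 5 ERI1 cells and 4 ERI2 cells in all, and 3 UNT cells, of which 0 were members. In ERI3, 91 of 104 lay in cluster 12, 87.5% (79.6 to 93.2), against 0.853% of the others, and in ERI4 cells 109 of 113, 96.5% (91.2 to 99.0), against 0.575% of the others. In PAC1, 13 of 22 lay in cluster 6 and 6 in cluster 5, against 36.0% and 1.98% of the other barcoded cells.

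Read the other way, bc1439-bc3041529 was called in 91 of the 109 barcoded ERI3 cells of cluster 12, 83.5% (75.2 to 89.9), and in 109 of the 147 barcoded ERI4 cells of it, 74.1% (66.3 to 81.0). Many ERI4 cells of cluster 12 had no barcode to call. Of its 689 ERI4 cells, 501 had no barcode feature, 72.7%, against 24.0% of its 154 ERI3 cells. In cluster 2 of ERI4 cells this was 73.1%, and in cluster 3 it was 2.05%. Those 501 cells had a median pseudotime of 26.1 (26.1 to 26.2), against 26.2 (26.1 to 26.6) for the 109 members there, and a median mitochondrial share of 4.73% against 4.68%. They were shallower, with 19221 UMIs per cell against 27002 for the members. Which lineage the cells without a barcode belong to was not tested, so 1.68% is a share of barcoded cells only; of all 9331 ERI4 cells, bc1439-bc3041529 was called in 1.21% and bc1495-bc3033662 in 7.71%.

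In ERI4 nuclei, smaller shares of each lineage lay in the cluster that led in ERI4 cells. The deposited calls of these nuclei differed between versions: the first revision gave the same barcode to 26 of the 188 and 6 of the 79. Whether this bears on the cluster shares was not tested. Of the 188 ERI4 nuclei of bc1495-bc3033662, 75 lay in cluster 4, 43 in cluster 10 and 40 in cluster 8; the 21.3% (15.7 to 27.8) in cluster 8 compared with 6.89% of the other barcoded nuclei. Of the 79 ERI4 nuclei of bc1439-bc3041529, 30 lay in cluster 12, 23 in cluster 4 and 22 in cluster 10; the 38.0% (27.3 to 49.6) in cluster 12 compared with 1.69% of the others. In UNT nuclei, 5 of 6 nuclei of bc1495-bc3033662 and 32 of 44 of bc1439-bc3041529 lay in cluster 0, which held 66.5% and 66.4% of the other barcoded nuclei.

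Neighbours in the deposited 2-dimensional UMAP map were counted among the barcoded cells of the same condition, 30 for each member. In ERI1, 6.32% of the neighbours of bc1495-bc3033662 cells carried the same barcode, which made up 1.40% of the cells. Other barcodes were more frequent among these neighbours, the leading with 20.7%, at 7.37% of the cells, and the next with 15.6%, at 3.91%. In ERI3 the own-barcode share was 59.6%, with a further 30.6% carrying bc146-bc3093034. In ERI4 cells it was 85.8%, with 3.14% carrying bc146-bc3093034. For bc1439-bc3041529 it was 8.99% in ERI1, where it made up 6.34% of the cells, 27.8% in ERI3 and 81.7% in ERI4 cells. In ERI3 its most frequent neighbour was bc1476-bc3049517, with 38.5% of neighbours and 37.9% of the barcoded cells. In ERI4 nuclei the own-barcode shares were 12.7% for bc1495-bc3033662 and 5.91% for bc1439-bc3041529, close to their 12.6% and 5.28% of the barcoded nuclei. The latest calls of most of these member nuclei differed from those of the first revision. So in ERI3 and ERI4 cells the own-barcode share exceeded what each lineage made up of the cells, while in ERI4 nuclei it was near it. Other lineages did the same, with own-barcode shares in ERI4 cells of 80.8% for bc146-bc3093034, 84.5% for bc1476-bc3049517 and 96.7% for bc1455-bc3023349, and in ERI3 of 84.3%, 62.2% and 36.2%. Since the members were chosen by the cluster in which they lay in ERI4 cells, their excess there is description only.

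Pseudotime placed the lineages on different stretches of the path. For bc1495-bc3033662 the median was 8.44 in UNT cells, 13.1 in ERI1, 13.9 in ERI2, 15.6 in ERI3 and 18.5 in ERI4 cells. For bc1439-bc3041529 it was 3.57 in UNT cells, 13.5 in ERI1, 13.6 in ERI2, 26.9 in ERI3 and 26.2 in ERI4 cells. Its UNT value rests on 16 cells that all had at least 3 detected barcodes. The lineages were close after 1 and 2 rounds, when both lay mostly in cluster 7, and 11.3 units apart in ERI3. Many cells sat at a single value: 79 of the 104 ERI3 cells of bc1439-bc3041529 were at 26.9, and 351 of the 719 ERI4 cells of bc1495-bc3033662 were at 18.5. The narrow intervals of these medians therefore reflect cells placed at one point of the path.

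Against the other barcoded cells of ERI3, pseudotime was lower for bc1495-bc3033662, with a median of 15.6 (15.6 to 15.9) against 22.5, and higher for bc1439-bc3041529, with 26.9 against 22.2 (22.0 to 22.5). With ties counted as 0.5, the member was the higher in 24.8% of cell pairs for bc1495-bc3033662 and in 87.5% for bc1439-bc3041529. In ERI4 cells both medians lay below those of the other barcoded cells, with 18.5 against 29.3 (29.2 to 29.3) for bc1495-bc3033662 and 26.2 (26.1 to 26.6) against 28.8 (28.7 to 28.9) for bc1439-bc3041529. The others were mostly bc1455-bc3023349, at 68.4% of barcoded ERI4 cells. Without that barcode the difference was 0 (-2.04 to 0.103) for bc1495-bc3033662 and turned to 7.70 for bc1439-bc3041529.

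Within cluster 8 of ERI4 cells, bc1495-bc3033662 had a later pseudotime than bc146-bc3093034, with a median of 18.5 against 17.2 (17.1 to 17.2), and was the higher in 92.1% of pairs. In cluster 8 of ERI3 both medians were 15.6, with bc1495-bc3033662 the higher in 67.7% of pairs. The medians of the lineages that shared this cluster were thus 1.27 apart in ERI4 cells and equal in ERI3. In cluster 8 of ERI4 nuclei, 40 nuclei of bc1495-bc3033662 had a median of 18.7 (18.5 to 23.3). For 65 of bc146-bc3093034 it was 23.1 (22.9 to 23.8), the opposite order, but these intervals overlapped. There bc1495-bc3033662 was the higher in 40.2% of pairs. Most calls of its ERI4 nuclei differed from the first revision. Over all clusters of ERI4 nuclei the medians were 22.7 (22.0 to 23.5) for bc1495-bc3033662 and 25.02 (24.6 to 25.4) for bc1439-bc3041529, against 24.5 and 24.1 for the other barcoded nuclei, while those of the 6 and 44 untreated nuclei were 13.7 and 12.7, against 13.5 for the others of either.

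The phase scores differed less than pseudotime. In ERI4 cells the median G2M score of bc1439-bc3041529 was 0.0986 (-0.0528 to 0.223), against -0.124 (-0.136 to -0.108) for the other barcoded cells. The intervals did not overlap, and the member was the higher in 62.6% of pairs. With the phase set from the deposited scores, 62 of the 113 cells were in G2M, 54.9% (45.2 to 64.2), 30 in S and 21 in G1, 18.6% (11.9 to 27.0). Of the cells carrying neither member barcode, 38.8% were in G2M and 42.7% in G1. These members were also deeper, at a median of 27031 UMIs per cell against 20896.5; among cells of a common depth range the G2M difference was 0.176 (0.0790 to 0.332), against 0.222 over all. Within cluster 12 it was 0.118, with an interval of -0.202 to 0.359 that holds 0. Among the 7 members with exactly 1 detected barcode it was -0.0775, with an interval of -0.320 to 0.751.

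The G2M score of bc1495-bc3033662 in ERI4 cells was near that of the others, with a median of -0.121 (-0.157 to -0.0798) against -0.120 (-0.135 to -0.101) for the others. The median S score was higher in both lineages, at -0.0993 (-0.116 to -0.0675) against -0.172 (-0.178 to -0.167) for bc1495-bc3033662 and at -0.0984 (-0.128 to -0.0497) against -0.168 (-0.173 to -0.162) for bc1439-bc3041529. The 719 cells of bc1495-bc3033662 held 230 in G1, 32.0% (28.6 to 35.5), 221 in S, 30.7% (27.4 to 34.3), and 268 in G2M. Without bc1455-bc3023349 among the others, the S difference of bc1495-bc3033662 was -0.000878, against 0.0731 with it, and that of bc1439-bc3041529 was 5.3e-05, against 0.0692. Within cluster 8, 31.8% of the bc1495-bc3033662 cells and 29.0% of the bc146-bc3093034 cells were in S.

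In ERI3 the S scores lay apart from those of the other barcoded cells in opposite directions. The median was -0.204 (-0.263 to -0.174) for bc1495-bc3033662 against -0.148 (-0.157 to -0.139), and -0.0998 (-0.138 to -0.0743) for bc1439-bc3041529 against -0.155 (-0.164 to -0.143). The phase shares of both overlapped with those of the cells carrying neither. bc1495-bc3033662 had 16 of 120 cells in S, 13.3% (7.82 to 20.7), and 59 in G1, 49.2% (39.9 to 58.4). bc1439-bc3041529 had 20 of 104 in S, 19.2% (12.2 to 28.1), and 34 in G1, 32.7% (23.8 to 42.6). The cells carrying neither had 18.5% in S and 40.7% in G1, within the intervals of both members. In ERI1 the median G2M scores were -0.0540 and -0.0422, against -0.0411 and -0.0415 for the other barcoded cells of each, and in ERI2 they were 0.175 and 0.0770, with intervals wide enough to hold the others' medians. Among the phase shares of both lineages in ERI2, only the G1 share of bc1495-bc3033662 had an interval apart from that of the cells carrying neither. It rests on 1 of 17 cells, 5.88% (0.149 to 28.7), against 32.3% (29.1 to 35.6) of the cells carrying neither. Of the 57 cells of bc1439-bc3041529, 34 were in G2M, 59.6% (45.8 to 72.4), against 43.6% (40.1 to 47.1), with overlapping intervals. Nuclei carry no phase scores.

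The mitochondrial share was lower in bc1495-bc3033662 than in the other barcoded cells in 8 of the 8 conditions with at least 5 members. In ERI4 cells the median was 3.97% (3.89 to 4.03) against 4.78% (4.76 to 4.81), in ERI3 2.45% (2.31 to 2.60) against 2.98% (2.95 to 3.03) and in ERI1 2.20% (1.87 to 2.90) against 3.03% (2.97 to 3.09). In UNT cells it was 3.67% (2.99 to 4.52) against 4.04% with 8 members, and in PAC1 2.29% (1.71 to 3.095) against 2.84%, where the interval holds the others' median. In ERI4 nuclei it was 13.5% (12.4 to 14.4) against 14.3% (13.95 to 14.6), again with overlap. The intervals were apart in ERI1, ERI2, ERI3 and ERI4 cells. Within cluster 8 of ERI4 cells the difference kept its direction, and the median was 3.95% (3.88 to 4.02) for bc1495-bc3033662 against 4.64% (4.57 to 4.70) for bc146-bc3093034. The same held in cluster 8 of ERI3, with 2.47% (2.30 to 2.63) against 2.95% (2.84 to 3.03). There the depths were close, at 10149 against 10264 UMIs per cell.

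For bc1439-bc3041529 the mitochondrial share was higher than in the others in 3 of 8 conditions and lower in 5. The median was 4.66% (4.38 to 4.93) against 4.71% in ERI4 cells, 2.63% (2.45 to 2.80) against 2.97% (2.94 to 3.02) in ERI3 and 3.27% (3.13 to 3.64) against 3.00% (2.94 to 3.06) in ERI1. It lay above the others in ERI1 and below them in ERI3, both with intervals apart. Its UMIs and detected genes per cell were higher than in the others in 7 of 8 conditions, ERI2 being the exception. In ERI4 cells the medians were 4995 genes (4773 to 5149) against 4354, and in UNT cells 4908 genes (4235 to 5574) against 4189. All 16 of these UNT members had at least 3 detected barcodes, and only 7 of the 113 ERI4 members had exactly 1. For bc1495-bc3033662 the median number of genes was lower in 8 of 8 conditions, by only 10 genes in ERI4 cells, with 4358 (4296 to 4455) against 4368.

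Depth moved with the number of barcodes detected. ERI4 cells of bc1495-bc3033662 had a median of 17986 UMIs with 1 detected barcode, 21936.5 with 2, 24803 with 3 and 35305 with 4. The share in cluster 8 was 96.1%, 92.7%, 85.0% and 38.9% over the same classes, the last of 18 cells. For bc1439-bc3041529 the medians were 21531, 25636, 26596 and 28098 UMIs, and 93.3% to 100% of each class lay in cluster 12. Cells of bc1495-bc3033662 outside its cluster were thus more common among cells with many barcodes, and those of bc1439-bc3041529 were not. In cluster 12 of ERI4 cells, its 109 members had 27002 UMIs per cell, against 37006 for the 38 barcoded cells of other lineages there.

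Set side by side in the same library, bc1439-bc3041529 had a higher median mitochondrial share and number of genes than bc1495-bc3033662 in ERI1, ERI2, ERI3 and ERI4 cells. The intervals overlapped for both measures in ERI2 and for genes in ERI1. In ERI4 cells the medians were 4.66% against 3.97%, 4995 against 4358 genes and 0.0986 against -0.121 for the G2M score, and the first was the higher in 66.7%, 69.9% and 62.2% of pairs. There bc1439-bc3041529 was also deeper, at 27031 against 21735 UMIs per cell, and had exactly 1 detected barcode in 6.19% against 21.6% of cells. In ERI1 the mitochondrial medians were 3.27% (3.13 to 3.64) against 2.20% (1.87 to 2.90), with bc1439-bc3041529 higher in 81.9% of pairs, and in ERI3 2.63% against 2.45% with overlapping intervals. The S scores differed least in ERI4 cells, with a difference of 0.000878.

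With at least 20 cells in the series, 5 other barcodes shared the bc14 part of bc1495-bc3033662, and none shared a part with bc1439-bc3041529. The most frequent, bc1495-bc3065716, was called in 222 cells, of which 110 were UNT cells, 86 UNT nuclei, 2 ERI4 nuclei, 16 ERI1, 3 ERI2 and 1 ERI3. The other 4 had 46, 35, 27 and 27 cells. Of these 5 barcodes, 0 cells were called in ERI4 cells, where bc1495-bc3033662 had 719. Whether calls moved between barcodes with the same bc14 part was not tested.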

How the data were processed

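The deposited table of cells was analysed together with the deposited UMAP coordinates and the barcode lists; no gene expression matrix was analysed here. Cell Ranger made the counts (3.1.0 in run 1, 4.0.0 in run 2, ARC 1.0.0 in run 3), Seurat 3.1.4 the clusters and UMAP, and Monocle3 0.2.1 the pseudotime, as the submitters' processing notes and the design text give it. The stated filter removed cells under 200 genes or over 50% mitochondrial or ribosomal UMIs; 179 cells, 1 of them a member, fell outside it and were kept. The authors deposited UMIs, genes, barcode counts and detected barcodes as raw counts per cell. Mitochondrial values were deposited as a percent of UMIs. The authors' phase and pseudotime values are score columns on an arbitrary scale; pseudotime was rounded to the 4th decimal. The meaning of the run 1 minimum of barcode counts is not given in the sources used here.

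Conditions came from the library and the deposited condition name, both matched to the labels. Only for the 50 members in UNT nuclei does the table leave out the hyphens after bc14 and bc30; that spelling is printed here for every condition. Every nucleus has 1 barcode feature more than cells, which was subtracted. Doublets were handled only through the deposited calls. The phase was G1 where both scores were at or below 0, otherwise that of the higher score. The interval of a difference runs between the extremes that the intervals of its medians allow. Barcodes named beside the members are those with at least 5% of barcoded ERI4 cells, and those sharing a part with a member in at least 20 cells. The members and these rules were chosen with earlier results of these data known. Python 3.11.15, numpy 2.4.6, pandas 2.3.3 and scipy 1.17.1 were used, and the interval and pair calculations were tested on simulated data.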

Additional observations from a re-analysis of the deposited data

Results flagged for a closer look

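Of 31 pairs of contrasts compared, 5 ran in opposite directions; shares counted only where both changed by at least 1 percentage point, and medians only with at least 10 members in each condition. None of these differences was tested, since each condition has 1 library. For bc1439-bc3041529, the median number of genes differed by 87 between ERI4 cells and UNT cells and by -366.5 between ERI4 nuclei and UNT nuclei. The UNT cells interval, 4235 to 5574 from 16 cells, held that of ERI4 cells, 4773 to 5149. All 16 had at least 3 detected barcodes. In nuclei the intervals also overlapped, at 1794 to 2209 in UNT and 1360 to 1886 in ERI4. Between ERI3 and ERI1, the share of barcoded cells differed by 4.02 percentage points for bc1495-bc3033662 and by -1.65 for bc1439-bc3041529. Over the same rounds, the median G2M score differed by -0.0426 for bc1495-bc3033662 and by 0.0316 for bc1439-bc3041529, and the median mitochondrial share by 0.253 percentage points for the one and by -0.634 for the other. The G2M intervals of ERI1 and ERI3 overlapped in both lineages. The mitochondrial intervals overlapped for bc1495-bc3033662, at 1.87 to 2.90 and 2.31 to 2.60, and lay apart for bc1439-bc3041529. Between ERI3 and ERI2, the share of barcoded cells differed by 3.49 percentage points for bc1495-bc3033662 and by -1.77 for bc1439-bc3041529. The share intervals of bc1439-bc3041529 in ERI1, ERI2 and ERI3 overlapped.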

How the results depend on the processing

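Over 34 results, 103 of 162 alternative values stayed within the counting interval of the reported value and kept its direction, 48 moved out of it and 11 turned direction. Among members with exactly 1 detected barcode in ERI4 cells, bc1495-bc3033662 made up 4.81% of barcoded cells, 96.1% lay in cluster 8, and its medians were -0.137 for S, -0.171 for G2M, 4.10% mitochondrial and 17986 UMIs; against the others it differed by -11.4 in pseudotime and turned to -414 in UMIs. Under that setting bc1439-bc3041529 rested on 7 cells, with a share of 0.217%, 100% in cluster 12, medians of 0.0847 for S, -0.242 for G2M and 21531 UMIs, and differences of -3.10 in pseudotime, 0.280 in S, -0.354 in mitochondrial percentage points and 3161 in UMIs, and its G2M difference turned to -0.0775. With all cells as denominator the shares were 7.71% of ERI4 cells, 2.16% of ERI4 nuclei and 3.90% of ERI3 for bc1495-bc3033662, and 1.21%, 0.907% and 3.38% for bc1439-bc3041529. The first revision of the call gave 3.56% and 1.55% of ERI4 nuclei, and 96.1% of bc1495-bc3033662 ERI4 cells in cluster 8. In the common depth range, 95.0% of bc1495-bc3033662 lay in cluster 8, and bc1439-bc3041529 differed from the others by -1.67 in pseudotime, 0.0262 in S and 2112.5 in UMIs. Without bc1455-bc3023349 among the others, bc1495-bc3033662 differed by 0 in pseudotime and -0.614 in mitochondrial percentage points, and turned to -0.000878 in S and -1703 in UMIs; bc1439-bc3041529 differed by 5.3e-05 in S, and turned to 7.70 in pseudotime and 0.265 in mitochondrial percentage points. Within the leading cluster alone, bc1495-bc3033662 differed by 0.00555 in S and -0.685 in mitochondrial percentage points, and turned to 1.20 in pseudotime and 0.0575 in G2M; bc1439-bc3041529 turned to 0.407 in pseudotime, -0.0228 in S and -10004 in UMIs. Among cells with both phase scores at or below 0, pseudotime differed by -12.0 and -4.54. At least 8 barcode counts, an alternative chosen after seeing the data, gave 9.21% and 0.209% of ERI3. For bc1439-bc3041529 it gave 2.23% of ERI1 and 1.29% of ERI2. Run 2 list barcodes alone, also chosen after seeing the data, moved no share of ERI3, ERI4 cells or ERI4 nuclei out of its interval. There 100%, 99.4% and 97.9% of barcoded cells were already on that list, so the shares could hardly move. In UNT nuclei, where 64.1% were on it, the share of bc1439-bc3041529 was 1.39%, above its interval of 0.649 to 1.20. The first call, likewise added, gave 8.26% of ERI4 cells and 10.0% of ERI4 nuclei for bc1495-bc3033662, and 0.128% and 3.56% for bc1439-bc3041529. The share in ERI4 cells minus that in UNT cells, also added, was 8.06 and 0.0310 percentage points under the first call and 4.49 and 0.217 with exactly 1 detected barcode. For all of these the cause was not tested.

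No paired analysis was possible because each condition has 1 library and the labels give no replicate numbers. Leaving out a replicate could not be run for the same reason. With 1 library per condition, the spread between cultures is unknown, and run, drug and rounds are partly confounded. The values of UNT cells rest on 8 and 16 cells, and all 16 cells of bc1439-bc3041529 had at least 3 detected barcodes.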
